A study of Mus musculus with 8 samples.

Results

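The metalloproteases and their tissue inhibitors are 83 of the 22609 genes counted in sensory neurons sorted from the dorsal root ganglia (DRG) of mice. They were taken by name from the deposited counts: every gene whose symbol begins with Adam or Mmp and a number, or with Adamts, and the 4 inhibitors Timp1 to Timp4. By family there were 32 ADAM, 19 ADAMTS, 5 ADAMTS-like, 23 MMP and 4 TIMP genes. The membership used no measured value, but Timp1 and Adamts8 were named in it with their sex difference already known.

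The study asked which genes differ between females and males in neurons that supply hindpaw skin and thigh muscle. WGA-488, a fluorescent lectin carried back along axons, was injected into both hindpaws and thighs of naïve C57BL/6J mice aged 8 to 12 weeks, the females in the estrous phase. After 2 days the L3–L5 DRG were dissociated with enzymes and labelled cells were sorted, so each library is a mixture of skin and muscle neurons that cannot be separated here. SMART-seq2 libraries, in which oligo-dT primes the cDNA and PCR amplifies it, were made for 4 females and 4 males, and no group received any other treatment or carried any altered gene.

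Metalloproteases are zinc enzymes that cut proteins outside the cell or at its surface. MMPs degrade matrix and other secreted proteins, ADAMs release the outer domains of membrane proteins, and ADAMTS enzymes cut proteoglycans and procollagens. TIMPs are secreted proteins that block the active site of these enzymes, and in peripheral nerve and ganglia the balance of both is known for its part in axon growth and nerve injury.

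Promoter sequence is shown for the members whose level differed between sexes at an unadjusted p under 0.05, with RefSeq windows of 250 bases before to 50 bases after the start site placed on NCBIM37, the assembly also called mm9. Such windows were matched for 3 of these 4 members. The Timp1 window is chrX:20447042-20447341 on the plus strand, the Adam8 window is chr7:147178412-147178711 on the minus strand, and the Mmp14 window is chr14:55050185-55050484 on the plus strand. Capitals mark a GC box (GGGCGG on either strand).
Timp1: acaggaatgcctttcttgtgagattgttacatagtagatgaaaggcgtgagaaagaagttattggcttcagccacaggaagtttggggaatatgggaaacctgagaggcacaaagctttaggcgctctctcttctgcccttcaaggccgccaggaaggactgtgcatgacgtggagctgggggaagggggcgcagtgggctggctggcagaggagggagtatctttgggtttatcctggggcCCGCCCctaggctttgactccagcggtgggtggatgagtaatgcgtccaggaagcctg
Adam8: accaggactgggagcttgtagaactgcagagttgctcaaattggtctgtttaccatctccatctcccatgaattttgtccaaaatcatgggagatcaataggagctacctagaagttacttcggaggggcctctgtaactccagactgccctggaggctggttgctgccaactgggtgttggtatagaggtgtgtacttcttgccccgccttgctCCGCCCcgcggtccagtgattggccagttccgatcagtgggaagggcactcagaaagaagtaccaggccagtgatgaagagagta
Mmp14: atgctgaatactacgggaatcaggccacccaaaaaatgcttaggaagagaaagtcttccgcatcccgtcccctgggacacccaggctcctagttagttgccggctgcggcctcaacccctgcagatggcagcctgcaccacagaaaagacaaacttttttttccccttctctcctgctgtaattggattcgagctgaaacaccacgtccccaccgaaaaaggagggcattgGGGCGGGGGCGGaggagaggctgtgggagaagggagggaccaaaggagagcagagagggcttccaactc

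The GC box of Timp1 began 8 bases before the start site, that of Adam8 began 35 bases before it, and Mmp14 had a pair side by side beginning 19 and 13 bases before it. This motif was present in 35.7% of 32851 mouse promoter windows of the same length. Searches of both strands for a TATA box (TATAAA, in 13.6% of windows), an AP-1 site (TGANTCA, in 7.81%) and a STAT site (TTCNNNGAA, in 8.3%) found no match in these 3 windows. The full palindromes of the estrogen response element (in 0.07% of windows) and of the androgen response element (in 0.00913%) were not found either. Only these exact letters were searched, so variant forms of the sites may be present. These matches describe the letters of the windows and not the binding of any factor.

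The libraries held 4800071 to 7329597 gene reads, and a level is given as reads per 1000000 gene reads (CPM) or, between genes, as CPM per kilobase of merged exon (RPKM). A count of 0 allowed a level of up to 0.409 to 0.625 CPM (3 reads), with counting error only. Genes of sensory neurons summed to 23234 to 33388 CPM in females and 23285 to 26430 CPM in males, and none of these 12 markers was at 0 in any library. Genes of satellite glia and Schwann cells summed to 11555 to 14856 CPM in females and 5390 to 11139 CPM in males, and 5 of 12 were higher in females at an unadjusted p under 0.05, beside 4.44% of all genes. Female replicate 4 stood apart from the other females, with a chi-square per degree of freedom of 30.1 to 44.9 against them where other pairs of the same sex gave 2.82 to 12.1, and it alone carried over 70 CPM of neutrophil genes. In sorted bulk samples, fewer cells of a type and less RNA per cell cannot be told apart.

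Reads of all members made up 0.136% of gene reads in female replicate 4 and 0.173% to 0.211% in the other libraries. ADAM genes took the largest share of member reads, 46.6% to 60.5% per library. TIMP genes followed with 24.1%, 28.1%, 28.1% and 29.2% in female replicates 1 to 4 and 17.7%, 23.0%, 25.3% and 23.0% in male replicates 1 to 4, so the sexes overlapped. MMP genes took 12.1% to 16.3%, ADAMTS genes 6.34% to 7.59% and ADAMTS-like genes 0.971% to 1.5%.

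**Figure D1:**
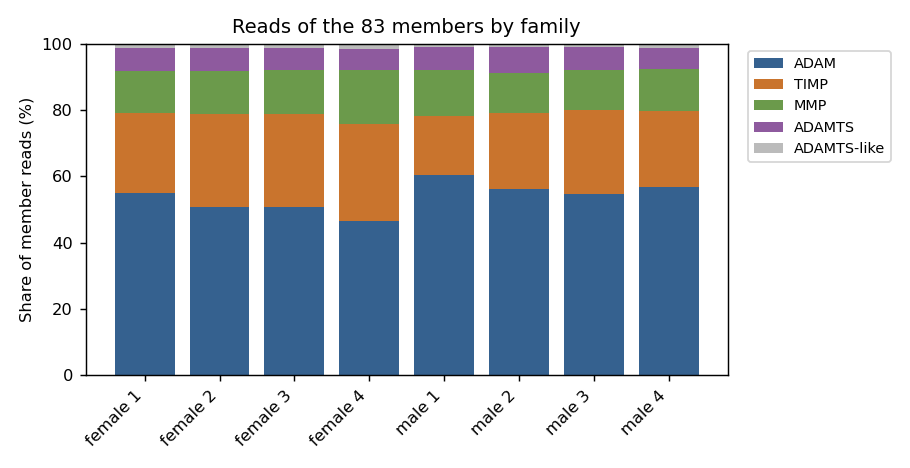
Share of member reads (%, vertical axis) taken by each family in each of the 8 libraries, stacked to 100%. ADAM genes took 46.6% to 60.5% in every library, and the lowest TIMP share, 17.7%, was in male replicate 1.

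Of the 83 members, 44 had reads in all 8 libraries, 20 in some and 19 in none. The mean level over the 8 libraries was at least 1 RPKM for 23 members and at least 10 RPKM for 11. The first 12 in this order were Timp2, Adam9, Adam11, Adam15, Adam22, Timp3, Mmp15, Mmp25, Adam10, Mmp14, Adam19 and Adam23. None of them is a secreted MMP, an ADAMTS or a member of the reproductive group of ADAMs.

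**Figure D2:**
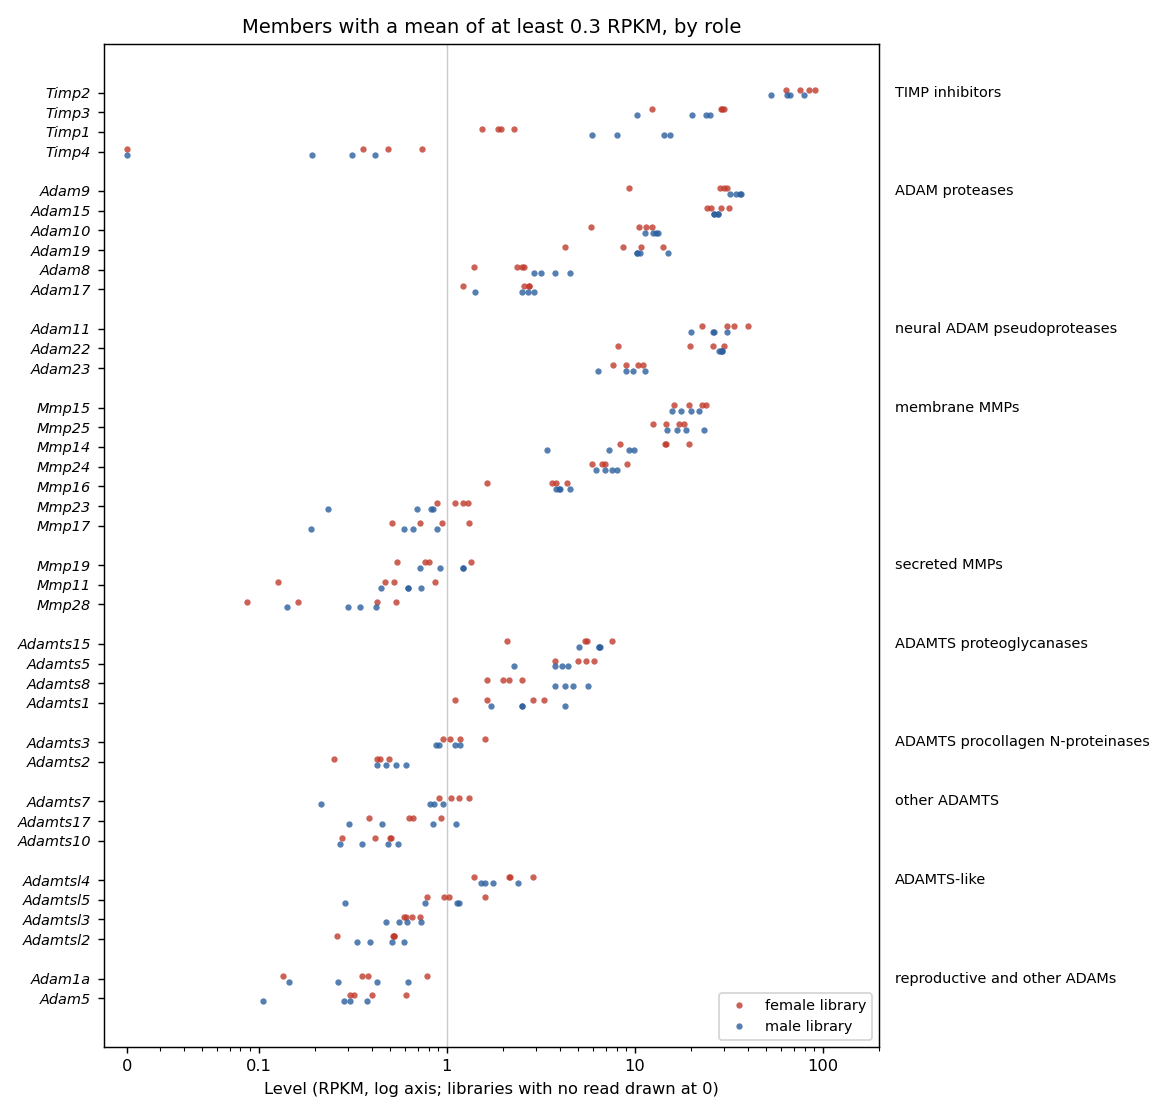
Level (RPKM, log axis) of each member with a mean of at least 0.3 RPKM, grouped by role. Each point is 1 library, red for female and blue for male, and points at 0 had no read. Timp2 lies highest, the secreted MMPs mostly lie under 1 RPKM, and Timp1 and Adamts8 show red and blue points apart.

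Among the inhibitors, Timp2 was the most abundant member of all. It blocks most MMPs and also takes part, with the membrane enzyme encoded by Mmp14, in the activation of the gelatinase MMP2. Its level was 63.9, 91.1, 84.3 and 75.4 RPKM in female replicates 1 to 4 and 53.3, 64.8, 79.6 and 67.3 RPKM in male replicates 1 to 4. Its lowest library thus lay above the highest library of any other member, which was Adam11 at 40.1 RPKM. Its sex difference did not pass the test (log2 fold change female over male 0.23 ± 0.15 SE, edgeR quasi-likelihood test, unadjusted p = 0.156).

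Timp3, the inhibitor that is held in the matrix and also blocks ADAM17, was at 29.7, 29.0, 28.8 and 12.4 RPKM in female replicates 1 to 4 and 10.3, 23.9, 25.1 and 20.2 RPKM in male replicates 1 to 4. Female replicate 4 and male replicate 1 were low and the sexes overlapped. Its log2 fold change was 0.31 ± 0.31 (SE, edgeR unadjusted p = 0.341), and without female replicate 4 it was 0.54 (unadjusted p = 0.0432, adjusted p = 0.419). Timp3 lies inside Syn3 on the opposite strand and shares 1733 exon bases with it, 21.3% of its own exons. The library method does not mark strand, so reads of that stretch cannot be assigned to either gene, and the level of Timp3 is uncertain to that extent.

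Timp4 had 22 reads over the 8 libraries, with none in female replicate 2 and male replicate 3, and a mean of 0.313 RPKM. It was too low to be tested. Like Timp1 and Timp3 it lies within a synapsin gene, here Syn2, with no shared exon bases.

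Timp1 was the inhibitor that differed between the sexes. It encodes a secreted inhibitor of most MMPs, known to be induced by injury and inflammatory signals. Female replicates 1 to 4 had 10, 10, 8 and 12 reads, and male replicates 1 to 4 had 100, 48, 32 and 86. Every male library was above every female one, and replicates 1 and 4 were the highest males.

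Mean levels of Timp1 were 1.70 CPM ± 0.266 (SD, n = 4) in females and 9.69 CPM ± 4.11 (SD, n = 4) in males, a ratio of 5.70 in favour of males. The log2 fold change was -2.53 ± 0.36 (SE), with an unadjusted p of 2.32e-05 and an adjusted p of 0.0264 by the edgeR quasi-likelihood test with Benjamini-Hochberg adjustment over 12518 genes. Per kilobase, Timp1 was at 1.91 RPKM ± 0.299 (SD, n = 4) in females and 10.9 RPKM ± 4.63 (SD, n = 4) in males. In males its mean level was therefore close to that of Adam10 or Adam19, and in females to that of Adamts8 or Adam8.

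The call on Timp1 depended on single libraries. Its adjusted p stayed under 0.05 without female replicate 1, male replicate 2 or male replicate 3, and ranged from 0.0666 to 0.166 without any 1 of the other 5. The log2 fold change ranged from -2.73 to -2.31 over these fits. With all libraries, Timp1 passed with DESeq2 (adjusted p = 6.62e-07). It did not pass with limma-voom (adjusted p = 0.169) or with the replicate number as a block in edgeR (adjusted p = 0.0844).

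The Timp1 gene (chrX:20447292-20451861, plus strand) lies inside an intron of Syn1, the gene of the synaptic vesicle protein synapsin, which runs on the opposite strand, and the exons of the genes share no base. Timp1 reads per 1000 Syn1 reads were 1.55, 2.14, 1.84 and 3.01 in female replicates 1 to 4 and 17.5, 9.11, 7.07 and 16.6 in male replicates 1 to 4. The sexes stayed apart in this ratio. Syn1 itself was at 819 CPM ± 107 (SD, n = 4) in females and 769 CPM ± 16.3 (SD, n = 4) in males (log2 fold change 0.07 ± 0.11 SE, edgeR unadjusted p = 0.543).

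The other host genes behaved as follows in the same fit. Syn2, around Timp4, had a log2 fold change of 1.01 ± 0.28 (SE, unadjusted p = 0.00469, adjusted p = 0.563), with female replicate 1 at 95.5 CPM beside 265 to 292 CPM in the other females and 105 to 126 CPM in males. Syn3, around Timp3, had one of -0.06 ± 0.30 (SE, unadjusted p = 0.833).

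**Figure D3:**
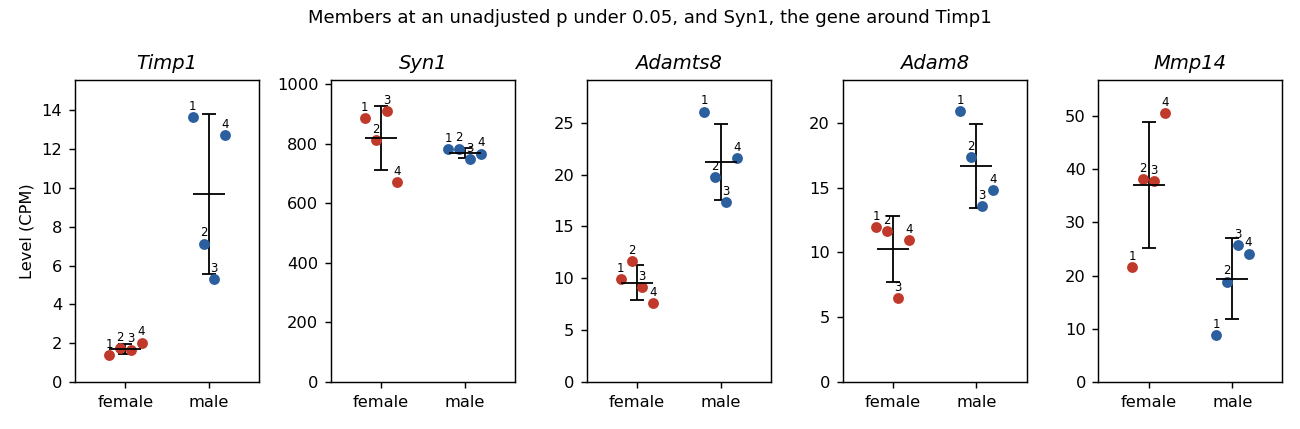
Level (CPM, linear axes from 0) of Timp1, its host gene Syn1, Adamts8, Adam8 and Mmp14 in each library, with the replicate number beside each point and bars for mean and SD (n = 4). Female and male points are apart for Timp1, Adamts8 and Adam8, and overlap for Syn1 and Mmp14.

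Across the members, 34 passed the filter on low counts and were tested, and 49 did not pass. The filter asked for at least 1.56 CPM in 4 libraries of either sex. Mmp11 met it in 3 males and 1 female, every other tested member met it in at least 3 libraries of each sex, and Timp1 met it in 4 males and 3 females. At an adjusted p under 0.05 there was 1 member, Timp1, where 0.0879% of all 12518 genes tested were called. At an unadjusted p under 0.05, 3 of the 34 were higher in males, where 2.67% of all genes were, and 1 was higher in females, where 4.44% of all genes were.

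The 3 members higher in males were Timp1, Adamts8 and Adam8, and the member higher in females was Mmp14. Because the sex difference of Timp1 and Adamts8 was already known, counts that include them are not independent support for the group. CPM did not overlap between sexes for 5 of the tested members. Timp1, Adamts8, Adam8 and Adam9 lay above in every male (2.52% of all genes did), and Mmp23 lay above in every female (3% of all genes did). The median log2 fold change of the 34 was -0.03 and that of all genes was 0.00, and 16 of the 34 were above 0.

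**Figure D4:**
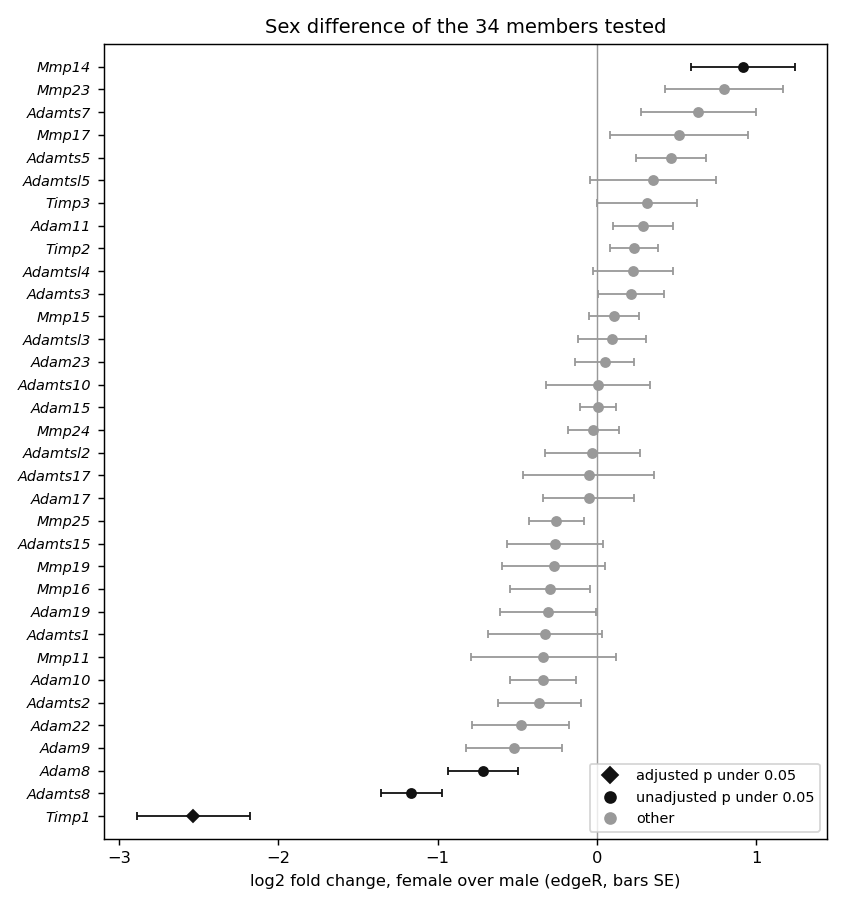
Log2 fold change, female over male, of the 34 members tested (horizontal axis; points are edgeR estimates and bars their SE). Timp1 (diamond, -2.53) is the only member at an adjusted p under 0.05; Adamts8, Adam8 and Mmp14 (black circles) are at an unadjusted p under 0.05.

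Of the ADAMTS enzymes that cut proteoglycans, 4 of 7 were tested. Adamts8, counted among them here, had 72, 67, 44 and 45 reads in female replicates 1 to 4 and 191, 133, 105 and 146 reads in male replicates 1 to 4. All males were above all females, and male replicates 1 and 4 were again the highest.

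Mean levels of Adamts8 were 9.57 CPM ± 1.68 (SD, n = 4) in females and 21.2 CPM ± 3.69 (SD, n = 4) in males, a ratio of 2.21 in favour of males. The log2 fold change was -1.17 ± 0.19 (SE, edgeR unadjusted p = 8.92e-05), and its adjusted p of 0.0745 missed the threshold. DESeq2 gave an adjusted p of 7.4e-05, and the edgeR fit without female replicate 1 gave 0.04997 with a log2 fold change of -1.18, just inside the threshold. The adjusted p was 0.112 with limma-voom and 0.225 with the replicate number as a block in edgeR. It was 0.0855 to 0.368 without any 1 of the other libraries. With the glial or the fibroblast marker level in the model it was 0.9985 and 0.9998. The gene lies at chr9:30750147-30771423 on the plus strand, next to Adamts15 at chr9:30706740-30730037 on the minus strand.

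Adamts15, its neighbour and the most abundant of the proteoglycan group at 5.65 RPKM, is known to cut aggrecan and versican. It was at 32.2, 45.1, 32.9 and 12.5 CPM in female replicates 1 to 4 and 38.3, 38.5, 38.6 and 30.0 CPM in male replicates 1 to 4 (log2 fold change -0.26 ± 0.30 SE, edgeR unadjusted p = 0.406). The sexes overlapped, and female replicate 4 was the lowest. Adamts5, the main aggrecan-cleaving enzyme of cartilage, was at 49.1, 44.8, 40.2 and 30.3 CPM in females and 18.4, 30.6, 35.8 and 33.1 CPM in males in the order of the replicates, with a log2 fold change of 0.46 ± 0.22 (SE, unadjusted p = 0.0577). Adamts1, which cuts versican and aggrecan, had a log2 fold change of -0.33 ± 0.36 (SE, unadjusted p = 0.384).

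Adamts4, Adamts9 and Adamts20 had reads in all libraries but too few to be tested. Adamts4, an aggrecan- and brevican-cleaving enzyme, had 30 reads in male replicate 2 and 1 to 7 in each other library. That library alone carried 30 of its 61 reads.

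The procollagen N-proteinases remove the amino-terminal propeptide of fibrillar collagens. Adamts3 led them at 1.11 RPKM, with 8.12 to 13.7 CPM in females and 7.50 to 10.1 CPM in males (log2 fold change 0.21 ± 0.21 SE, edgeR unadjusted p = 0.331). Adamts2 had a log2 fold change of -0.36 ± 0.26 (SE, unadjusted p = 0.192). Adamts14 had 2 to 6 reads per library and was not tested.

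Among the other ADAMTS genes, 3 of 9 were tested, and Adamts7, which cuts cartilage oligomeric matrix protein, had the highest level at 0.911 RPKM. Its 6.74, 8.33, 5.83 and 7.41 CPM in female replicates 1 to 4 stood beside 1.36, 5.20, 6.11 and 5.47 CPM in male replicates 1 to 4. Male replicate 1 was far below the rest, and the log2 fold change of 0.64 ± 0.36 (SE, edgeR unadjusted p = 0.108) did not pass. Adamts10 and Adamts17, both linked to fibrillin microfibrils, had log2 fold changes of 0.01 and -0.05. The remaining 6, Adamts6, Adamts12, Adamts13, Adamts16, Adamts18 and Adamts19, had 2 to 25 reads in total each.

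The ADAMTS-like proteins share the matrix-binding parts of ADAMTS enzymes but have no protease domain. Adamtsl4, which binds fibrillin, led at 1.98 RPKM, with 5.90 to 12.1 CPM in females and 6.36 to 10.1 CPM in males (log2 fold change 0.23 ± 0.25 SE, edgeR unadjusted p = 0.387). The 4 of 5 members tested had log2 fold changes from -0.03 to 0.35, and none passed. Adamtsl1 had 19 reads in total.

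The group of ADAM proteases known from tissues outside the reproductive tract was set at 9 genes, of which 6 were tested. Adam9, which sheds several growth factor precursors, was the most abundant at 29.8 RPKM. It was at 114, 124, 119 and 37.2 CPM in female replicates 1 to 4 and 138, 146, 129 and 148 CPM in male replicates 1 to 4. Males did not overlap females, and female replicate 4 was far below the other females.

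With all libraries the log2 fold change of Adam9 was -0.52 ± 0.30 (SE, edgeR unadjusted p = 0.112). Without female replicate 4 it was -0.25 ± 0.08 (SE, unadjusted p = 0.00877, adjusted p = 0.320). The estimate thus became smaller without that library, and its error did too.

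Adam15, which also takes part in cell adhesion, varied little, at 149 to 196 CPM in females and 162 to 171 CPM in males, with a log2 fold change of 0.00 ± 0.11 (SE, edgeR unadjusted p = 0.968). It shares 1263 exon bases, 20.5% of its exons, with a long noncoding RNA on the opposite strand, so part of its reads cannot be assigned with certainty. Adam10, the main alpha-secretase and the sheddase that starts Notch signalling, was at 56.4, 60.7, 52.1 and 29.0 CPM in female replicates 1 to 4 and 55.7, 61.9, 64.2 and 65.8 CPM in male replicates 1 to 4. Only female replicate 4 stood off, and the log2 fold change was -0.34 ± 0.20 (SE, unadjusted p = 0.128).

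Adam17, the enzyme that releases tumor necrosis factor, was low in both female replicate 4 (8.76 CPM) and male replicate 1 (10.1 CPM) and at 17.9 to 20.8 CPM in the other 6. Its log2 fold change was -0.05 ± 0.29 (SE, edgeR unadjusted p = 0.857). Adam19, which cuts neuregulin, was at 106, 80.5, 64.8 and 31.8 CPM in female replicates 1 to 4 and 113, 79.9, 77.1 and 76.8 CPM in male replicates 1 to 4 (log2 fold change -0.31 ± 0.30 SE, unadjusted p = 0.328). Both replicates 1 were the highest of their sex, but the sexes overlapped.

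Adam8 (chr7:147164831-147178461, minus strand) is known mainly from leukocytes and also found in neurons. With all libraries in the fit, it was the ADAM that differed most between sexes relative to its error. Female replicates 1 to 4 had 87, 67, 31 and 65 reads, and male replicates 1 to 4 had 153, 117, 82 and 100. In CPM every male was above every female, at 10.2 CPM ± 2.56 (SD, n = 4) in females and 16.6 CPM ± 3.24 (SD, n = 4) in males. Its log2 fold change was -0.71 ± 0.22 (SE, edgeR unadjusted p = 0.00824, adjusted p = 0.637), so it did not pass after adjustment.

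Adam33 had 2 to 18 reads per library, Adam12 had 15 reads in total, and Adam28 had none. Of the 15 Adam12 reads, 13 were in females, but the gene was below the filter.

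The neural ADAMs 11, 22 and 23 have lost the catalytic motif and act as adhesion proteins and receptors for the secreted LGI proteins. All were abundant, and together they supplied 3 of the 12 highest members. Adam22, the receptor of LGI1 at the synapse, had the most reads of any member and was at 365, 320, 240 and 99.6 CPM in female replicates 1 to 4 and 358, 354, 356 and 343 CPM in male replicates 1 to 4. Males were nearly equal, while females spread more than 3 times from highest to lowest.

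The log2 fold change of Adam22 was -0.48 ± 0.31 (SE, edgeR unadjusted p = 0.146), without female replicate 4 it was -0.21 (unadjusted p = 0.0871), and without female replicate 1 it was -0.69 (unadjusted p = 0.0485, adjusted p = 0.518). Adam11 was at 191, 175, 227 and 129 CPM in female replicates 1 to 4 and 113, 147, 175 and 149 CPM in male replicates 1 to 4, with a log2 fold change of 0.29 ± 0.19 (SE, unadjusted p = 0.149). Without female replicate 4 it was 0.43 (unadjusted p = 0.0123, adjusted p = 0.341). Adam23 was at 83.9 to 121 CPM in females and 69.7 to 125 CPM in males (log2 fold change 0.05 ± 0.19 SE, unadjusted p = 0.804).

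The membrane-anchored MMPs were the better represented part of the MMP family, with all 7 tested. Mmp15 led at 19.7 RPKM and was at 70.4 to 105 CPM in females and 68.9 to 95.9 CPM in males (log2 fold change 0.11 ± 0.16 SE, edgeR unadjusted p = 0.508). Mmp25, whose lipid-anchored product is best known from neutrophils, came next at 17.0 RPKM with 57.9, 62.0, 49.2 and 42.1 CPM in female replicates 1 to 4 and 78.3, 63.3, 50.4 and 56.6 CPM in male replicates 1 to 4 (log2 fold change -0.26 ± 0.17 SE, unadjusted p = 0.168). The sexes overlapped, and female replicate 4 was the lowest.

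Mmp14 (chr14:55050441-55060095, plus strand) encodes the membrane enzyme that activates MMP2 and cuts fibrillar collagen. Female replicates 1 to 4 had 157, 220, 181 and 300 reads, or 21.6, 38.2, 37.7 and 50.5 CPM. Male replicates 1 to 4 had 65, 127, 156 and 163 reads, or 8.87, 18.9, 25.8 and 24.1 CPM. Female replicate 1 fell within the range of males and male replicate 1 was the lowest of all.

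Its means were 37.0 CPM ± 11.9 (SD, n = 4) in females and 19.4 CPM ± 7.61 (SD, n = 4) in males, a ratio of 1.91 in favour of females. The log2 fold change was 0.91 ± 0.33 (SE, edgeR unadjusted p = 0.0177, adjusted p = 0.637), which did not pass after adjustment.

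Mmp23 was low but apart in the sexes, with 2.08 to 3.02 CPM in females and 0.546 to 1.98 CPM in males (log2 fold change 0.80 ± 0.37 SE, edgeR unadjusted p = 0.0548). Mmp24, a membrane MMP of the nervous system that cuts N-cadherin, was nearly level at 33.6 CPM in either sex (log2 fold change -0.02 ± 0.16 SE, unadjusted p = 0.891). Mmp16 was at 37.9, 33.0, 31.5 and 14.15 CPM in female replicates 1 to 4 and 33.1 to 39.3 CPM in males. Its log2 fold change was -0.30 ± 0.25 (SE), and that of Mmp17 was 0.51 ± 0.43 (SE).

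Secreted MMPs were scarce: 2 of 16 were tested. Mmp19 led at 0.941 RPKM with 11 to 28 reads per library (log2 fold change -0.27 ± 0.32 SE, edgeR unadjusted p = 0.420), and 789 of its exon bases, 23.1%, are shared with a gene on the opposite strand. Mmp11, a stromelysin, had 2 to 13 reads per library (log2 fold change -0.34 ± 0.46 SE, unadjusted p = 0.476). Mmp28 had 2 to 12 reads per library and Mmp3 a single read.

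The gelatinase Mmp2, the substrate of the Mmp14 enzyme, had 22 reads over 8 libraries, of which 16 were in females. No read fell on Mmp1a, Mmp1b, Mmp7, Mmp10, Mmp12, Mmp20, Mmp21 or Mmp27. Those genes were not detectable at this depth, with the upper limit given above.

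The reads of Mmp8, Mmp9 and Mmp13, a collagenase of neutrophils, a gelatinase and a second collagenase, lay mostly in 1 library. Summed over the 3 genes, female replicates 1 to 4 had 2, 3, 1 and 31 reads and male replicates 1 to 4 had 0, 5, 4 and 2. Female replicate 4 alone had 6 reads of Mmp8, 10 of Mmp9 and 15 of Mmp13. These 3 members were singled out after their values were seen.

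In the same library, genes of neutrophils and their precursors summed to 74.6 CPM over 7 markers, where the other 7 libraries had 0.412 to 7.64 CPM. The calprotectin gene S100a8 was at 24.4 CPM there and at 0 to 3.55 CPM elsewhere, and Mpo, the myeloperoxidase gene, was at 9.94 CPM there and at most 0.444 CPM elsewhere. No neutrophil marker was at 0 in female replicate 4, while 2 to 6 of the 7 were at 0 in each other library. The collagen gene Col1a1 was also at 32.7 CPM in that library and at 0 to 2.47 CPM in the others. The part of neutrophils in the reads of the 3 MMPs was not tested.

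**Figure D5:**
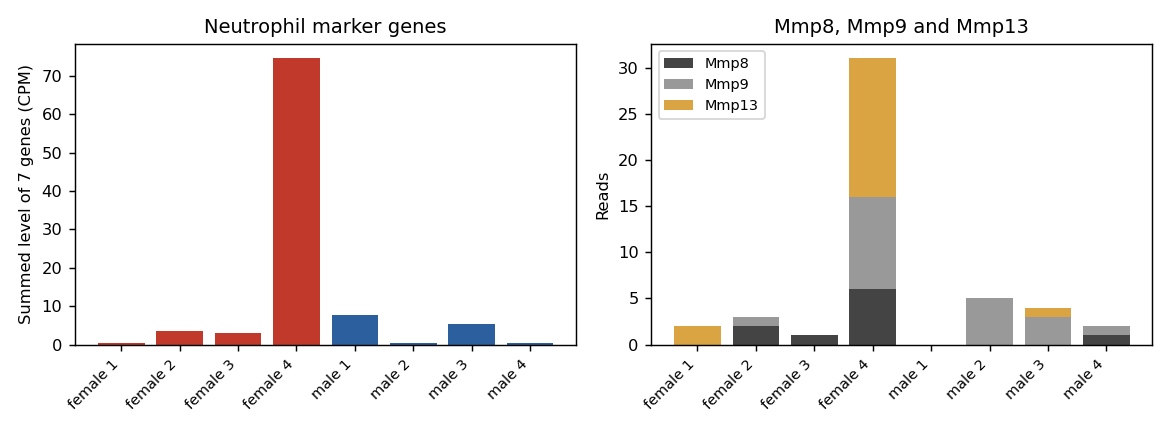
Left, summed level of 7 neutrophil marker genes (CPM) per library. Right, stacked reads of Mmp8, Mmp9 and Mmp13 per library. Both peak in female replicate 4, at 74.6 CPM and 31 reads.

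The 20 other ADAM genes, many known for roles in sperm or without a settled role in nerve, were near the limit of detection. Adam1a led them at 0.389 RPKM with 2 to 14 reads per library, and it shares 24.9% of its exon bases with Mapkapk5 on the same strand. Adam5, Adam21 and Adam1a had reads in all libraries, and Adam32, with 32 reads, in 7. No read fell on 10 of the 20, namely Adam6a, Adam6b, Adam24, Adam25, Adam26a, Adam26b, Adam29, Adam30, Adam34 and Adam39, and none was tested.

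Most tested members had their lowest level in 1 of 2 libraries. Of the 34 tested, 14 (41.2%) were lowest in female replicate 4, as were 31.5% of all 12518 tested genes, and 13 (38.2%) were lowest in male replicate 1, as were 17.6% of all tested genes. The other libraries were lowest for 1 or 2 members each, except male replicate 2, which was lowest for none. Members lowest in female replicate 4 included Adam9, Adam10, Adam19, Adam22 and Adamts15, and those lowest in male replicate 1 included Timp2, Timp3, Adam11, Adam23, Mmp14 and Adamts7.

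Glial and fibroblast marker sums were highest in female replicate 4 and lowest in male replicate 1. Summed glial marker levels in male replicates 1 to 4 were 5390, 9682, 11139 and 8891 CPM, and in females 11557, 11555, 11694 and 14856 CPM. Fibroblast marker genes summed to 121, 121, 100 and 169 CPM in females and 57.2, 109, 104 and 75.6 CPM in males, and 3 of the 5 tested were higher in females at an unadjusted p under 0.05, beside 4.44% of all genes. Male replicate 1 was lowest in both lists, and it had the most Timp1 and Adamts8 and the least Mmp14.

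Within the males, Timp1 and Adamts8 were in the same order, replicates 1, 4, 2 and 3, and the glial sum was in the reverse order. In females, replicate 4 had the highest Timp1, at 2.02 CPM, and the lowest Adamts8, at 7.58 CPM. Its glial sum was the highest and was mostly Apoe, at 10873 CPM, whereas its mean glial marker level on the log2(CPM + 1) scale, 7.56, lay within the 7.51 to 7.78 of the other females. Apoe also took a large part of the glial sum in both sexes, with means of 8940 CPM in females and 5818 CPM in males. With the mean glial marker level in the model, the edgeR log2 fold change was -1.91 for Timp1 (unadjusted p = 0.000799, adjusted p = 0.833), -0.92 for Adamts8 (unadjusted p = 0.00471), -0.41 for Adam8 (unadjusted p = 0.184) and 0.19 for Mmp14 (unadjusted p = 0.587). With the fibroblast marker level it was -1.96 for Timp1 (unadjusted p = 0.00215, adjusted p = 1.00), -0.80 for Adamts8, -0.66 for Adam8 and 0.33 for Mmp14. Because these levels differ between sexes, sex and the share of other cells cannot be fully told apart in these 8 libraries.

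Macrophage markers summed to 4.54 to 16.3 CPM in females and 3.82 to 7.93 CPM in males, low beside those of neurons and glia, with 0 to 6 of 11 at 0 per library. Endothelial markers summed to 52.3 to 89.8 CPM in females and 51.8 to 60.1 CPM in males, with at most 2 of 8 at 0. Egfl7 alone gave 46.8 to 70.6 CPM of that sum, and the defining markers Pecam1 and Cdh5 were at 0.825 to 2.37 CPM and at 0 to 3 reads. Pericyte and smooth muscle markers summed to 40.8 to 83.8 CPM in females and 71.8 to 97.1 CPM in males, with 1 to 3 of 7 at 0. Rgs5 and Pdgfrb gave nearly all of that sum, and each of the other 5 had at most 9 reads in a library. Of the 2 tested, Rgs5 was higher in males (log2 fold change -0.47 ± 0.21 SE, edgeR unadjusted p = 0.0456), beside 2.67% of all genes. In male replicates 1 to 4 the sum was 97.1, 73.7, 71.8 and 91.0 CPM, in the same order as Timp1. The part of macrophages, endothelium and pericytes in the member differences was not tested.

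Partners, activators and targets of these enzymes were read from lists of 66 genes, of which 52 were tested. None passed at an adjusted p under 0.05 by edgeR. At an unadjusted p under 0.05, 6 (11.5%) were higher in females, where 4.44% of all genes were, and 2 (3.85%) in males, where 2.67% of all genes were. Log2 fold changes were above 0 for 33 of the 52 and for 6344 of all 12518 genes, with medians of 0.14 and 0.00. DESeq2 called Notch1 and Pappa, at adjusted p of 0.00378 and 0.0302, and limma-voom called none. The share of all genes called by DESeq2 was not taken, so these calls cannot be set beside it.

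Among the activators, 3 of 16 were higher in females at an unadjusted p under 0.05, beside 4.44% of all genes. Tspan5 and Tspan15, tetraspanins that guide ADAM10 to the cell surface, had log2 fold changes of 0.59 ± 0.21 (SE, edgeR unadjusted p = 0.0196) and 0.60 ± 0.21 (SE, unadjusted p = 0.0150). The sexes overlapped for both. Female replicate 1 was at 59.5 CPM for Tspan5 (males 51.4 to 65.6) and 83.3 CPM for Tspan15 (males 89.5 to 102). Rhbdf2, which brings ADAM17 to the surface, had one of 0.65 ± 0.25 (SE, unadjusted p = 0.0237), and its females lay above its males. Bsg, the membrane inducer of MMPs also called basigin, was the most abundant of the list at 406 RPKM (log2 fold change 0.14 ± 0.11 SE, unadjusted p = 0.235).

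Of the plasmin system, which activates several MMPs, 4 of 7 were tested. Plaur, the urokinase receptor, was higher in males (log2 fold change -0.78 ± 0.25 SE, edgeR unadjusted p = 0.0103), with overlapping levels. Serpine2, an inhibitor of thrombin and plasminogen activators, was at 149, 144, 155 and 203 CPM in female replicates 1 to 4 and 46.3, 121, 132 and 109 CPM in male replicates 1 to 4 (log2 fold change 0.65 ± 0.27 SE, unadjusted p = 0.0342). It was lowest in male replicate 1.

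In the group of other metallopeptidases and secretases, 1 of 13 had an unadjusted p under 0.05, in the direction of males, beside 2.67% of all genes. Pappa, which cuts insulin-like growth factor binding proteins, was at 7.42, 8.33, 9.58 and 5.73 CPM in female replicates 1 to 4 and 11.5, 15.2, 17.8 and 13.9 CPM in male replicates 1 to 4. Males lay above females throughout (log2 fold change -0.93 ± 0.21 SE, edgeR unadjusted p = 0.00113, adjusted p = 0.413). Unlike Timp1 and Adamts8, it was lowest among the males in replicate 1. Ncstn, the gamma-secretase subunit nicastrin and the most abundant of this list at 44.6 RPKM, was level (log2 fold change -0.02 ± 0.10 SE).

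Of the substrates, 2 of 19 (10.5%) had an unadjusted p under 0.05, both higher in females, beside 4.44% of all genes. Notch1, the receptor cut by ADAM10, was at 51.6, 67.2, 79.4 and 72.3 CPM in female replicates 1 to 4 and 15.6, 29.3, 41.6 and 26.5 CPM in male replicates 1 to 4 (log2 fold change 1.24 ± 0.26 SE, edgeR unadjusted p = 0.000594, adjusted p = 0.323). Bcan, the proteoglycan brevican, was at 247, 240, 303 and 262 CPM in female replicates 1 to 4 and 64.5, 173, 209 and 147 CPM in male replicates 1 to 4 (log2 fold change 0.81 ± 0.28 SE, unadjusted p = 0.0152). Both were apart in the sexes and lowest in male replicate 1, the library with the lowest glial sum. With the mean glial marker level in the model, the log2 fold change was 0.63 for Notch1 (edgeR unadjusted p = 0.0204) and 0.09 for Bcan (unadjusted p = 0.645). Ngfr, the low-affinity neurotrophin receptor, was the most abundant substrate at 446 RPKM (log2 fold change -0.33 ± 0.20 SE, unadjusted p = 0.117).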

How the data were processed

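Transcripts of back-labelled DRG neurons were sequenced in 4 female and 4 male libraries of 4800071 to 7329597 gene reads, grouped and numbered by their titles. Per the labels, the authors demultiplexed with bcl2fastq, aligned reads of 50 bases to mm9 with TopHat2 and counted them per gene with HTSeq. The deposited values are raw read counts, and tool versions, annotation release and strand option were not given in the sources used here. Lines naming no gene, 76.1% to 77.6% of each file's total, were left out. Nothing states that same-numbered libraries share an animal or day, and p-values measure the spread between these libraries.

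Counts were fitted in edgeR 4.0.16 (R 4.3.3) with TMM factors, filterByExpr and the quasi-likelihood test, sex alone in the model, and Benjamini-Hochberg adjustment over 12518 genes. Standard errors came from the estimate and its F statistic. Exon lengths, positions and overlaps came from GENCODE M1 on NCBIM37, matched for 83 of 83 members and 21678 of 22609 genes. RPKM here is CPM per kilobase of merged exons. The test was also run on data simulated from the edgeR fit. At an adjusted p under 0.05 it recovered 56.5% of 200 genes changed 2-fold and 98% of 200 changed 4-fold.

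Named members were the TIMPs, those at an unadjusted p under 0.05, the 12 highest by mean RPKM, the highest of each role and Adamts8, 22 in all. Of the pathway lists, those at an unadjusted p under 0.05 and the highest of each list were named, with the 3 synapsin genes. Other members are given briefly to account for all of them, and the lead markers were named after their values were seen. Members, lists and rules were chosen with earlier results of these data known. The comparison was repeated with DESeq2 1.42.0, with voom from limma 3.58.1, and with other scalings and filters, each library left out, the replicate number as a block, and glial or fibroblast scores (mean log2(CPM + 1)) as covariates. No libraries differed by so little that they had to be counted as 1. Python 3.11.15, pandas 2.3.3 and matplotlib 3.10.9 were used.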

Additional observations from a re-analysis of the deposited data

Results flagged for a closer look

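In 58 comparisons of a named member or marker list within the 4 libraries of a sex, 8 had a library far from the other 3. Chance gives about 1 in 20 such results, or 2.9 of 58. Values are log2(CPM + 1), and for marker lists its mean over the list.

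Female replicate 4 was low for Adam9, at 5.26 with the others at 6.84 to 6.97, and low for Timp3, at 6.67 with the others at 7.88 to 7.92. The same library was high for the neutrophil markers, at 3.26 with the others at 0.0766 to 0.507. Female replicate 3 was low for Adam8, at 2.90 with the others at 3.58 to 3.70.

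Male replicate 1 was high for Adam19, at 6.83 with the others at 6.28 to 6.34. It was low for Adamts7, at 1.24 with the others at 2.63 to 2.83, and low for the macrophage markers, at 0.355 with the others at 0.582 to 0.629. Male replicate 4 was low for Adamts15, at 4.96 with the others at 5.30 to 5.31.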

How the results depend on the processing

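The sign of Timp1 and of Adamts8 stayed the same in every alternative run. The adjusted p of Timp1 missed the threshold with limma-voom (log2 fold change -2.41, adjusted p = 0.169) and with the glial (-1.91) or fibroblast score (-1.96), and leaving out 1 library gave -2.73 to -2.31. Adamts8 passed with DESeq2 (-1.18) and without female replicate 1 (-1.18), and leaving out 1 library gave -1.28 to -1.04. Members at an adjusted p under 0.05 numbered 2 with DESeq2 (Timp1 and Adamts8), 0 with limma-voom and either score, and 0 to 2 with 1 library left out (2 without female replicate 1, 1 without male replicate 2 or 3, 0 without any other). Members higher in females at an unadjusted p under 0.05 numbered 3 with DESeq2, 2 with limma-voom, 2 with library size alone, 5 with no low-count filter, 0 with either score, and 1 to 4 with 1 library left out (4 without female replicate 4, namely Adam11, Adamts5, Mmp14 and Timp3, and 3 without male replicate 3). Those higher in males numbered 3, except 2 with either score and 4 without female replicate 1 (with Adam22) or female replicate 4 (with Adam9). The 3 with DESeq2 include Adam12 and Mmp13, and the 5 without a filter include Adam12, Mmp8 and Mmp13. The reads of these members were few. The cause of the other shifts was not tested. Shares over all genes were taken for the main fit alone, so these counts cannot be set against all genes under each alternative.

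Deviations of same-numbered female and male libraries correlated at 0.0988, -0.11, 0.134 and 0.00721 over 13120 genes, so the numbers were not taken as pairs, and not every library correlated best with its own number. With the replicate block, members at an adjusted p under 0.05 numbered 0, Timp1 had a log2 fold change of -2.49 (adjusted p = 0.0844), and Adam15 one of -0.0027.

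For 32 other named genes under 17 alternatives, 511 of 544 values kept direction and side of the threshold, 4 gained a call and 29 changed sign, none of them a call. With the glial score, signs changed for Adam19 (0.0098), Adam23 (-0.39), Adamts7 (-0.32), Mmp15 (-0.074), Mmp25 (0.019), Ncstn (0.081), Timp2 (-0.079) and Timp3 (-0.33). With the fibroblast score they changed for Adam15 (-0.071), Adam19 (0.30), Adam23 (-0.037), Adamts15 (0.17), Adamts7 (-0.044), Bsg (-0.025), Mmp25 (0.070), Ncstn (0.051) and Syn3 (0.36). Adam15 was at -0.0041 with limma-voom and Ncstn at 0.0044 with library size alone. Leaving out 1 library gave -0.068 to 0.058 for Adam15, -0.086 to 0.17 for Adam23, -0.062 to 0.018 for Ncstn and -0.26 to 0.18 for Syn3. Ordering by CPM kept 11 of the first 12 members, all but Mmp14. Of the 49 untested members, 19 had no read, 20 had reads in some libraries, and the rest had reads in all 8 but too few to test.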
